A study of Mus musculus with 6 samples.

Results

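The genes described here are 7 mouse immunity-related GTPases (IRG), Irgm1, Irgm2, Igtp, Iigp1, Tgtp1, Tgtp2 and Ifi47, taken by name from a deposited table of read counts for 43432 gene IDs. All 7 were in the table. RNA was sequenced from medullary thymic epithelial cells (mTEC), the thymic stromal cells that display peripheral self antigens to developing T cells, of C57BL/6 mice aged 4 weeks. There were 3 libraries from CopaE241K/+ mice (MUT) and 3 from Copa+/+ mice (WT). The mutated gene, Copa, gives rise to a subunit of COPI, the coat of vesicles that carry proteins back out of the Golgi to the endoplasmic reticulum. The labels name the allele by its E241K change and give no other allele or agent for either genotype. Whether a library is 1 animal or a pool is not stated, so p-values describe differences among 6 libraries that may be technical in part. The series' title links the Copa mutation to STING and type I interferon, and the comparison MUT minus WT is the one the labels give.

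IRG proteins are large GTPases that interferons induce in mouse cells. They are best known in cell-autonomous defence, where they gather on vacuoles that hold intracellular parasites or bacteria and break them open. The family has 2 classes named for a residue in the nucleotide-binding loop. GMS proteins, with methionine, sit on the cell's own Golgi, endoplasmic reticulum and lysosomal membranes and hold the other class inactive there. GKS proteins, with lysine, are the effectors that load onto the foreign vacuole. In the coding sequences of GENCODE M21 on GRCm38 the class of each member was read from this loop, and Irgm1, Irgm2 and Igtp came out as GMS, with Iigp1, Tgtp1, Tgtp2 and Ifi47 as GKS. The loop codons of the 6 genes on chromosome 11 are given below because they divide the members into regulators and effectors, with the deciding codon in capitals.
Irgm1: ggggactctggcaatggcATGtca
Irgm2: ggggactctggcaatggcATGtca
Igtp: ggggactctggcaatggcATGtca
Tgtp1: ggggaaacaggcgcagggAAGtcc
Tgtp2: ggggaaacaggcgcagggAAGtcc
Ifi47: gggcagtctgggactggcAAGtcc
The stretch was the same base for base in the 3 GMS genes, and the same in Tgtp1 and Tgtp2.

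Of the members, 6 lie on chromosome 11. Irgm1 (ENSMUSG00000046879, chromosome 11, 48861968 to 48871683), Tgtp1 (ENSMUSG00000078922, 48985327 to 48994172), Tgtp2 (ENSMUSG00000078921, 49057194 to 49064206) and Ifi47 (ENSMUSG00000078920, 49076587 to 49096974) are neighbours there. Igtp (ENSMUSG00000078853, 58199556 to 58207591) and Irgm2 (ENSMUSG00000069874, 58199618 to 58222782) lie together farther along that chromosome. All 7 members are protein-coding in GENCODE M21, and Iigp1 lies on another chromosome. The annotated Irgm2 gene spans most of Igtp on the same strand, and their exons overlap by 162 bases.

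The start of the gene is shown next because type I interferon acts through the interferon-stimulated response element (ISRE) and interferon-gamma through the gamma-activated site (GAS) and through IRF1 at ISRE-like letters. RefSeq windows on GRCm38.p6, from 250 bases before to 50 after the RefSeq gene start, were matched for 6 of the 7 members. RefSeq and GENCODE starts can differ, and the windows of Irgm1, Irgm2 and Tgtp1 lie wholly inside the GENCODE genes given above. The Irgm2 window (58214727 to 58215026) is the farthest from its GENCODE start, at 58199618. The stretches below therefore describe RefSeq starts, which for these 3 genes and for Tgtp2 are not the GENCODE ones. They were searched on both strands for the repeated core of the ISRE, spelled GAAA, any 2 bases and GAAA again, and for the GAS letters, spelled TTC, any 3 bases and GAA, which read the same on both strands. The core was found in 5 of the 6 windows, against 3.44% of all 32851 windows of that length. Both sets of letters within 10 bases of each other were found in 4 of the 6, against 0.131% of all windows. In the following stretches of 60 bases, printed 5′ to 3′ along each gene, capitals mark the GAS letters and then the ISRE core.
Irgm1, chr11:48871421-48871480, minus strand: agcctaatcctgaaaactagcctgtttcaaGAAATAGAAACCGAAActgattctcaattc
Irgm2, chr11:58214883-58214942, plus strand: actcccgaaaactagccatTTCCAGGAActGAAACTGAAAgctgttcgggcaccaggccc
Igtp, chr11:58199492-58199551, plus strand: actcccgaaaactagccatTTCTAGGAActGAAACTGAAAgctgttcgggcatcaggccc
Tgtp1, chr11:48992294-48992353, minus strand: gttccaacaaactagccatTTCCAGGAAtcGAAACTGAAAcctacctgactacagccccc
Tgtp2, chr11:49064253-49064312, minus strand: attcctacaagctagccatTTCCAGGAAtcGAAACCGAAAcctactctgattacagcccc
In Irgm2, Igtp, Tgtp1 and Tgtp2 the GAS letters stood 2 bases before the core. Irgm1 held 2 overlapping cores and no GAS letters in its window, so all of its capitals are ISRE core. The Irgm2 and Igtp stretches differed at 2 of 60 positions, and the Tgtp1 and Tgtp2 stretches at 14. The 4 windows that held both sets of letters may therefore not be separate occurrences. Neither motif was found in the Ifi47 window, which says only that these letters are not there. A match is a description of letters and was not tested as a binding site.

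**Figure D1:**
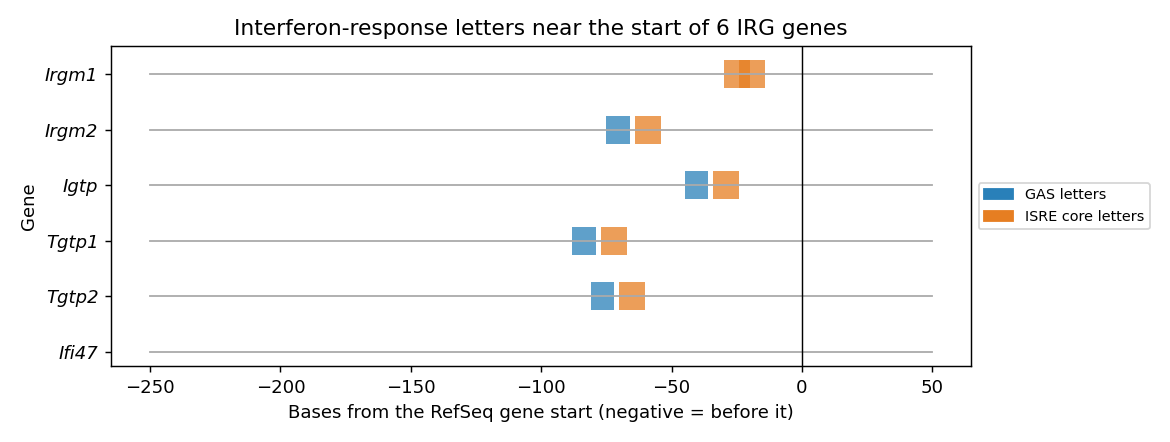
Positions of the GAS letters (blue) and the ISRE core (orange) in RefSeq windows of 6 IRG genes, in bases from the RefSeq gene start. In 4 genes the GAS letters stand 2 bases before the core, Irgm1 has 2 overlapping cores, and the Ifi47 line is bare.

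Library totals ran from 21218363 to 23366238 counts in MUT and from 19934513 to 22880945 in WT. The mTEC markers Epcam, Aire and Fezf2 had at least 8857 counts in every library, and 11 of 12 listed mTEC markers were tested, while Ccl21a had at most 4 counts. Summed, the mTEC markers lay at 3899 to 4342 CPM (counts scaled to a common library size) in MUT and 3670 to 5807 in WT. Of the 11 tested, 6 had a fitted value above 0, and Epcam was the one without overlap, at 484.1 ± 95.2 CPM in MUT and 673.6 ± 67.4 CPM in WT, lower in every MUT library. Summed markers of dendritic cells and macrophages lay at 601.5 to 1644 CPM in MUT and 717.1 to 1388 in WT, and summed thymocyte markers at 164 to 851.8 CPM in MUT and 241.6 to 748.4 in WT. Over all marker lists, the others without overlap were Adgre1, lower in every MUT library, and Mertk, Vpreb3 and Esam, higher in every MUT library. Adgre1 and Mertk are among 12 tested markers of dendritic cells and macrophages, Vpreb3 among 6 of B cells and Esam among 9 of endothelium and fibroblasts. Mertk (0, 36 and 18 counts in WT libraries 1, 2 and 3) and Vpreb3 (0, 0 and 7) passed the filter on low counts through their MUT counts. Over all genes tested, every MUT library lay above every WT library for 5.39% and below for 3.96%. No marker was called, and 0% of all genes were. No thymocyte, dendritic cell or macrophage marker was at 0 in every library, and Siglech, Mertk, Ptcra and Rag2 were at 0 in some. Replicate 2 held the highest sum of both lists in each genotype. The other listed types gave sums of 547.1 to 1133 CPM in MUT and 523.2 to 803.2 in WT for cortical epithelium, 22.03 to 82.8 in MUT and 24.07 to 49.3 in WT for B cells, and 52.1 to 122.1 in MUT and 66.5 to 163.3 in WT for endothelium and fibroblasts. Leukocytes also express IRG genes, and the part of any of these cell types in the IRG values was not tested.

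Taken over the 7 genes, more IRG reads were counted in each MUT library than in any WT library, but no member passed the test. The summed level was 455.5, 580.5 and 401.8 CPM in MUT libraries 1, 2 and 3, against 373.3, 329 and 333 CPM in WT libraries 1, 2 and 3. That is 479.3 ± 91.7 CPM in MUT and 345.1 ± 24.5 CPM in WT (mean ± SD, n = 3 each, as for every mean here), with no overlap. Among single genes tested, every MUT library lay above every WT library for 5.39%. The sum is over chosen genes and carries no test. Ifi47, which overlapped between genotypes, made up 30.3% to 54.3% of the members' counts in a library. The sums of the GMS and of the GKS genes, given below, each overlapped. In edgeR's quasi-likelihood test with Benjamini-Hochberg adjustment over 17172 genes, 0 of the 7 members had an adjusted p under 0.05, and 0% of all genes did. At an unadjusted p under 0.05 there were 0 members, against 3.48% of all genes in either direction and 1.62% higher in MUT. DESeq2 and limma-voom also called 0 members after adjustment, where DESeq2 called 0.424% of its 27388 genes, and DESeq2 gave 2 members, Tgtp1 and Tgtp2, an unadjusted p under 0.05, as it did 5.99% of all genes. With the replicate number as a block DESeq2 gave 0 members such a p, against 7.4% of all genes. After adjustment 0 members were called without the filter on low counts, where 0.253% of genes passed, in edgeR with that block, where 0.00582% did, and in DESeq2 with it, where 1.05% did. All 7 members passed the filter on low counts with at least 35 counts in every library. In edgeR each member's adjusted p was 0.999875, which was also the lowest of all genes.

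The fitted log2 fold change was above 0 for 6 of 7 members, against 49.4% of all genes tested, and the members' median was 0.61, against -0.01 over all genes. Every MUT library lay above every WT library for 2 members, Tgtp1 and Tgtp2, against 5.39% of all genes. The same 2 members had a fitted value of 1 or more, as had 17% of all genes. Tgtp1 and Tgtp2 share most of their transcript sequence, as given below, so the 2 may not be separate observations. No member lay the opposite way, against 3.96% of all genes. In these bulk samples a change in the share of cells that express a gene and a change in its RNA per cell cannot be told apart.

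**Figure D2:**
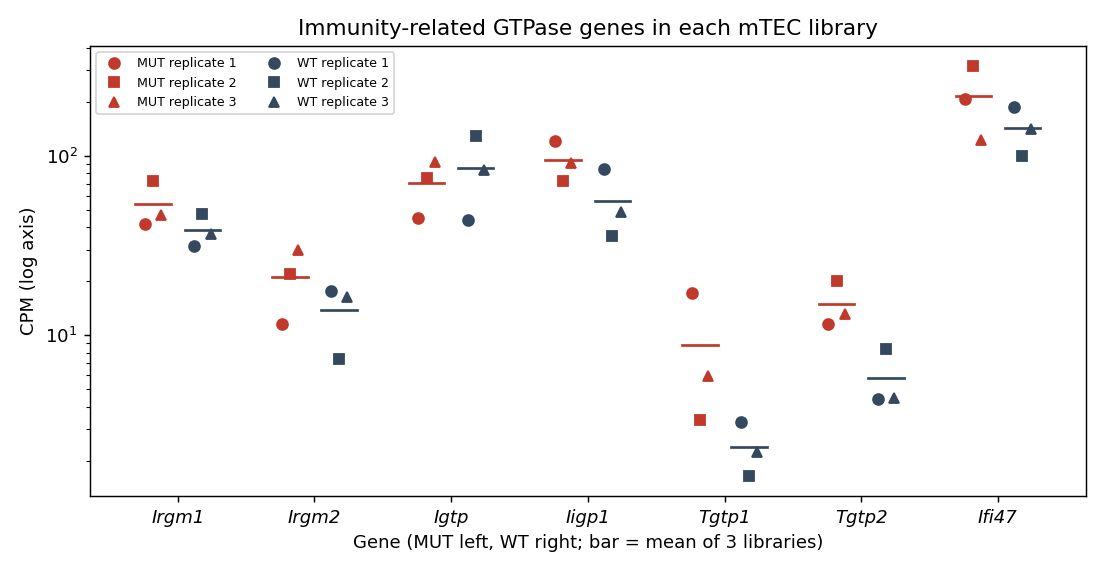
CPM of the 7 IRG genes in each library on a log axis, MUT left and WT right of each gene name, with a bar at the mean of 3 libraries. MUT and WT points are apart for Tgtp1 and Tgtp2 and overlap for the other 5 genes.

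Among the GMS regulators, Irgm1 and Irgm2 had higher means in MUT, Igtp had a lower one, and all 3 overlapped between genotypes. Irgm1 is known on Golgi and lysosomal membranes, and its loss in mice impairs defence and blood stem cells. Its counts were 885, 1513 and 1290 in MUT libraries 1, 2 and 3, against 546, 1004 and 832 in WT libraries 1, 2 and 3. At 41.7, 72.5 and 46.6 CPM in MUT, against 31.4, 47.3 and 36.6 CPM in WT, only WT library 2 reached into the MUT range. Its means were 53.6 ± 16.5 CPM in MUT and 38.4 ± 8.11 CPM in WT, with a log2 fold change of 0.48 (SE 0.53, unadjusted p = 0.384 in edgeR). Without MUT replicate 2 the value was 0.19.

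Irgm2, a Golgi-resident GMS protein, measured 11.6, 21.9 and 29.99 CPM in MUT libraries 1, 2 and 3, against 17.7, 7.39 and 16.4 CPM in WT. The lowest MUT library lay below 2 of the WT libraries. The log2 fold change was 0.61 (SE 0.84, unadjusted p = 0.48 in edgeR), and it was 0.27 without MUT replicate 3 and 0.30 without WT replicate 2. Counts ranged from 245 to 830 in MUT and from 157 to 372 in WT.

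Igtp, also named Irgm3, a GMS protein of the endoplasmic reticulum and lipid droplets, was the one member with a fitted value below 0. It measured 45.05, 74.9 and 92.65 CPM in MUT libraries 1, 2 and 3, against 44.1, 129.1 and 83.2 CPM in WT. WT library 2 was the highest of all and WT library 1 the lowest, so the WT values enclosed the MUT ones. The log2 fold change of -0.27 (SE 0.51, unadjusted p = 0.605 in edgeR) changed sign to 0.14 without WT replicate 2, was -0.03 without MUT replicate 1 and -0.59 without WT replicate 1. In WT library 2 Igtp had 17.5 counts for each count of Irgm2, its neighbour, while the ratio was 3.09 to 3.90 in the MUT libraries and 2.49 and 5.08 in WT libraries 1 and 3. Of all 50-base windows in the annotated transcripts, 11.8% of those of Igtp and 7.83% of those of Irgm2 also occur in another gene, in the main in each other, so a limited share of their reads could have been divided between them.

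Among the GKS effectors, every fitted value was above 0. Tgtp1 and Tgtp2, known together as Irgb6, are neighbouring copies whose protein loads onto parasite vacuoles. The counts of Tgtp1 were 366, 70 and 164 in MUT libraries 1, 2 and 3, against 57, 35 and 51 in WT, or 17.3, 3.35 and 5.93 CPM in MUT and 3.27, 1.65 and 2.24 CPM in WT. MUT library 1 stood well above the rest, while MUT library 2 was just above the highest WT library. The log2 fold change was 1.89 (SE 1.44, unadjusted p = 0.214 in edgeR), and 0.96 without MUT replicate 1.

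The counts of Tgtp2 were 245, 419 and 363 in MUT libraries 1, 2 and 3, against 77, 178 and 102 in WT. Its level was 11.6, 20.1 and 13.1 CPM in MUT and 4.42, 8.38 and 4.49 CPM in WT, so the genotypes did not overlap. The means of 14.9 ± 4.53 CPM in MUT and 5.77 ± 2.27 CPM in WT gave a log2 fold change of 1.37 (SE 1.04, unadjusted p = 0.213 in edgeR), which stayed between 1.09 and 1.73 with any 1 library left out.

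The separate values of these copies are uncertain, because 79.4% of the 50-base windows of Tgtp1 occur in Tgtp2 and 85.8% of those of Tgtp2 occur in Tgtp1. How the authors' counting divided such reads is not given in the sources used here. Tgtp1 took 59.9%, 14.3% and 31.1% of the pair's counts in MUT libraries 1, 2 and 3, against 42.5%, 16.4% and 33.3% in WT libraries 1, 2 and 3. The exact 95% binomial intervals were 55.9% to 63.8% in MUT library 1 and 11.3% to 17.7% in MUT library 2. They cover counting error only and treat each read as a separate draw, so with amplified cDNA they may be too narrow. The split between the copies differed among libraries of 1 genotype by more than these intervals cover. Their sum is less open to this division: it was 28.8, 23.4 and 19.04 CPM in MUT, against 7.70, 10.03 and 6.73 CPM in WT. Every MUT library lay above every WT library in this sum. The sum averaged 23.8 ± 4.90 CPM in MUT and 8.15 ± 1.69 CPM in WT, a ratio of 2.91. Counted as 1 gene in the fit, the pair had a log2 fold change of 1.54 (SE 0.84, unadjusted p = 0.0925, adjusted p = 0.999863 in edgeR), so the difference did not pass the test in this form either.

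Iigp1 (ENSMUSG00000054072, chromosome 18, 60376027 to 60392634), or Irga6, is the GKS protein studied most closely on the vacuole of Toxoplasma gondii. In MUT libraries 1, 2 and 3 it was counted 2551, 1519 and 2529 times, against 1479, 758 and 1099 times in WT. At 120.3, 72.8 and 91.4 CPM in MUT, against 84.97, 35.7 and 48.4 CPM in WT, WT library 1 was the only WT library to reach the MUT range. The means were 94.8 ± 23.97 CPM in MUT and 56.3 ± 25.6 CPM in WT. Its log2 fold change was 0.75 (SE 0.48, unadjusted p = 0.145 in edgeR, the smallest of the members), 1.17 without WT replicate 1 and 0.50 without WT replicate 2. Only 1.69% of its 50-base windows occur in another gene.

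Ifi47, or Irgd, had the most counts of the members in 5 of 6 libraries. Its level was 208, 315.1 and 122.1 CPM in MUT libraries 1, 2 and 3, against 187.4, 99.6 and 141.7 CPM in WT. MUT library 3 lay below 2 of the WT libraries. MUT library 2 was the highest of all and WT library 2 the lowest, so replicate 2 lay at opposite ends in the 2 genotypes. The means were 215 ± 96.7 CPM in MUT and 142.9 ± 43.9 CPM in WT, with a log2 fold change of 0.59 (SE 0.42, unadjusted p = 0.185 in edgeR). The value was 0.20 without MUT replicate 2, and -0.0069 when replicate 2 of both genotypes was left out, an alternative chosen after seeing the data. In each genotype replicate 2 had the largest sums of thymocyte and of dendritic cell and macrophage markers, and also the largest mitochondrial share of counts, at 21.3% in MUT and 18.9% in WT, against 9.14% and 16.04% in the other MUT libraries and 11.1% and 17.1% in the other WT libraries. The part of these in the Ifi47 value was not tested.

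**Figure D3:**
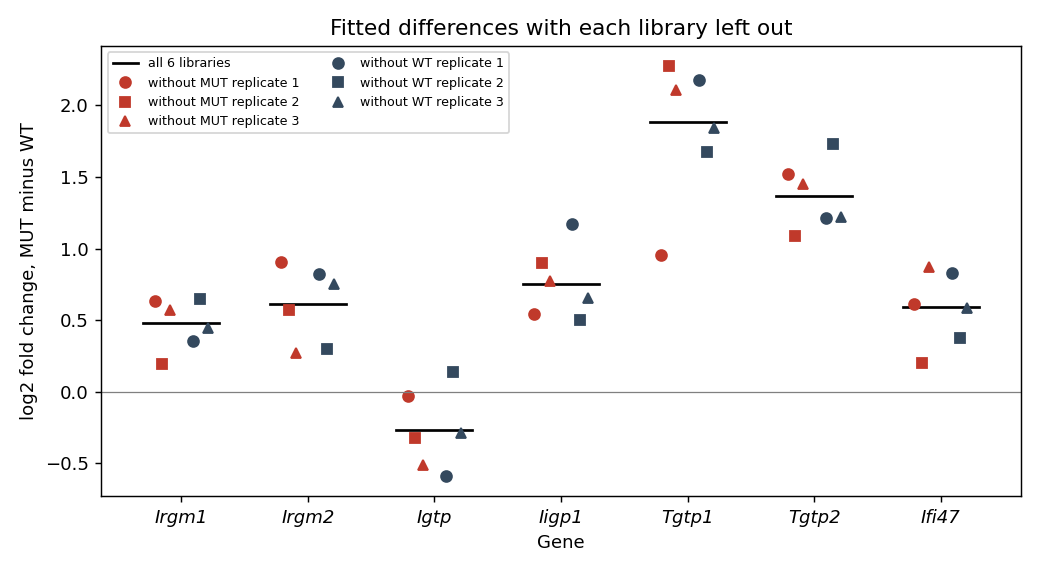
Log2 fold change (MUT minus WT) of each IRG gene with all 6 libraries (black line) and with each library left out (red for a MUT library, dark blue for a WT library). The sign changes for Igtp without WT replicate 2, and Tgtp1 is at 0.96 without MUT replicate 1, against 1.89 with all libraries.

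Per kilobase of annotated exon the members stood in 1 order in both genotypes: Ifi47, Igtp, Iigp1, Irgm1, Irgm2, Tgtp2 and Tgtp1. The places of Tgtp2 and Tgtp1, also relative to Irgm2, rest on their separate counts, which are uncertain as given above. Ifi47 was at 86.96 ± 39.1 CPM per kilobase in MUT and 57.8 ± 17.8 in WT. Igtp followed at 35.1 ± 11.9 CPM per kilobase in MUT and 42.3 ± 21.03 in WT, and Tgtp1 came last at 2.76 ± 2.31 in MUT and 0.75 ± 0.26 in WT. In WT the Ifi47 and Igtp ranges overlapped (40.3 to 75.8 and 21.8 to 63.8 CPM per kilobase), and in MUT they did not (49.4 to 127.4 and 22.3 to 45.8). Igtp and Iigp1 did not overlap in either genotype. Below them, Irgm2 and Tgtp2 overlapped in both genotypes, Iigp1 and Irgm1 in WT alone, and Irgm1 and Irgm2, like Tgtp2 and Tgtp1, in MUT alone. Exon length here is the union of all annotated exons, and amplification that favours 1 end of a transcript was not corrected.

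The balance of regulators and effectors varied as much within a genotype as between them. The GMS genes took 21.6%, 29.2% and 42.1% of the members' counts in MUT libraries 1, 2 and 3, against 24.97%, 55.8% and 40.9% in WT. WT library 2 held the largest GMS share, and there Igtp alone made up 39.2% of the members' counts. The GMS genes summed to 145.6 ± 40.9 CPM in MUT and 137.7 ± 45.3 CPM in WT, a ratio of 1.06, and the GKS genes to 333.6 ± 91.6 CPM in MUT and 207.4 ± 68.02 CPM in WT, a ratio of 1.61. Both sums overlapped between genotypes: the lowest MUT library had 232.5 CPM of GKS genes, and the highest WT library 280.1. These ratios are descriptions of sums over chosen genes and carry no test.

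**Figure D4:**
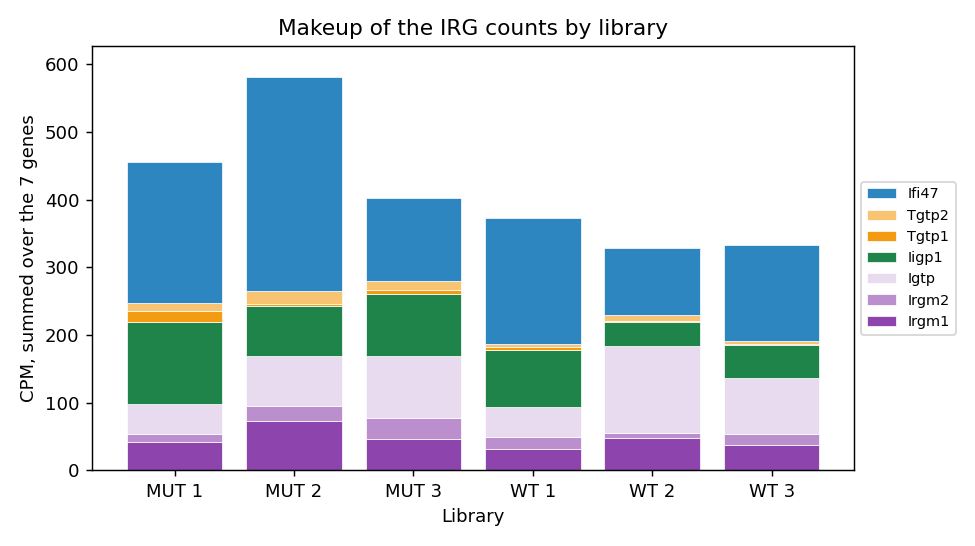
CPM of the 7 IRG genes stacked for each library, with GMS genes in purple at the bottom and GKS genes above. The MUT stacks reach 401.8 to 580.5 CPM and the WT stacks 329 to 373.3, and the purple part is tallest relative to the stack in WT 2.

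The members did not follow 1 common course over the 6 libraries. On centred log2 CPM, the root mean square difference from the members' mean course (a distance, not a fold change) was smallest for Irgm1 (0.34) and Iigp1 (0.40) and largest for Igtp (0.75) and Tgtp1 (0.86). Igtp and Tgtp1 were the least alike pair (1.49), and Irgm1 and Tgtp2 the most alike (0.49). The near-identical copies Tgtp1 and Tgtp2 were 1.06 apart. Distances that involve Tgtp1 or Tgtp2 rest on their separate counts, which are uncertain as given above. Among pairs without these copies, Igtp and Iigp1 were the least alike (1.07). The 5 genes outside the members whose course was closest to the members' mean over the 6 libraries, among genes with a mean of at least 5 CPM, were Mllt10 (0.093), Pcm1 (0.10), Gm43302 (0.11), Mtmr3 (0.12) and 2010315B03Rik (0.14). Their own direction between genotypes follows from this choice and is no separate result.

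Other genes of the IRG family were set beside the members. Of 15 names listed, 11 were in the table and 9 were tested. A fitted value above 0 was found for 8 of the 9, against 49.4% of all genes, with a median log2 fold change of 0.15. For these 9 genes and for the lists that follow, edgeR called 0, which is also its count over all genes. Gm12250, or Irgb10, is an effector known on bacterial membranes, though GENCODE M21 lists it as a pseudogene. Its counts were 47, 146 and 72 in MUT libraries 1, 2 and 3, against 3, 3 and 102 in WT. In 2 WT libraries Gm12250 was almost uncounted, and WT library 3 lay within the MUT range, so the log2 fold change of 1.29 had an SE of 1.94. Gm12185, or Irgb2b1, had 137, 428 and 188 counts in MUT, against 0, 94 and 21 in WT, with no overlap on the CPM scale. It was the only 1 of the 9 tested genes without overlap. Every MUT library lay above every WT library in 5.39% of all genes. Gm12185 passed the count filter through its MUT counts, and its log2 fold change was 2.65 (SE 1.75, unadjusted p = 0.156 in edgeR). Its annotated exons overlap those of Tgtp1 by 223 bases on the same strand, so the reads of the pair may be divided as well.

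F830016B08Rik, a neighbour of Iigp1 with the synonym Ifgga4, had 15.1, 33.2 and 32.7 CPM in MUT, against 2.47, 12.9 and 17.5 CPM in WT. MUT library 1 fell between WT libraries 2 and 3, and the log2 fold change was 1.30 (SE 0.91). Other neighbours of Iigp1 gave values near or below 0, at 0.03 (SE 0.45) for Gm4951 and -0.22 (SE 0.70) for Gm4841. Gm5431 was at 0.10 (SE 1.13), 9930111J21Rik1 at 0.15 (SE 2.19), 9930111J21Rik2 at 0.68 (SE 1.87) and Irgq, a distant relative on chromosome 7, at 0.04 (SE 0.51). Irgc1 was counted 188, 0 and 18 times in MUT and 0, 0 and 1 times in WT, and the pseudogene Gm12187 26 times in MUT library 2 alone; neither was tested.

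**Figure D5:**
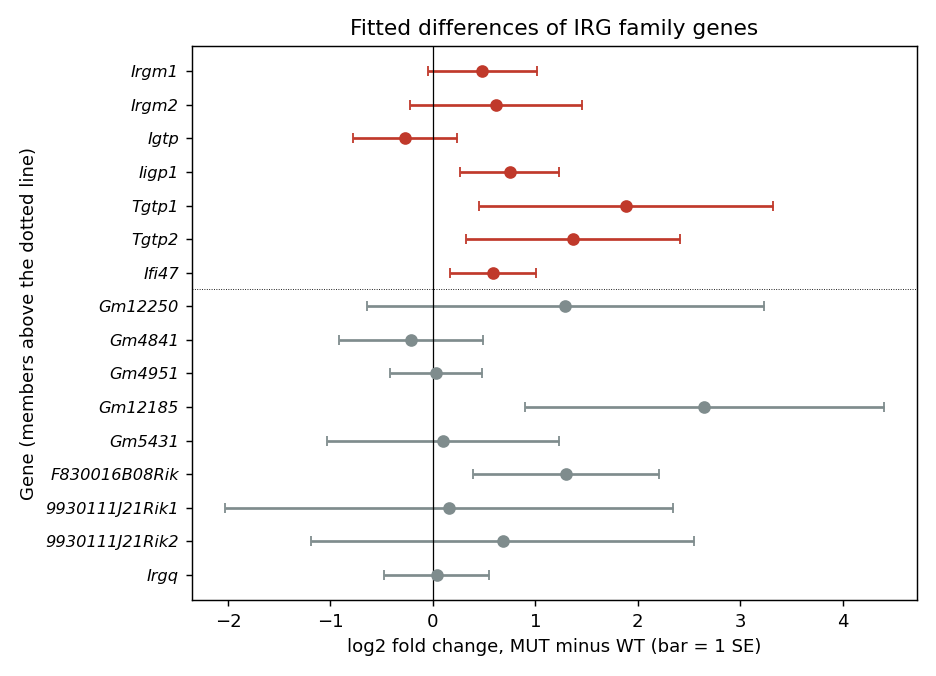
Fitted log2 fold change, MUT minus WT, of the 7 members (red) and the 9 other tested IRG family genes (grey), with bars of 1 SE. Most points lie right of 0, the widest bars belong to rarely counted genes, and no gene passed edgeR's test after adjustment.

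The guanylate-binding proteins, interferon-induced GTPases that act with IRG proteins on vacuoles, were set beside them. Of 12 listed genes 9 were in the table and 8 tested; 8 of 8 had a fitted value above 0, and the median was 0.69, against 0.61 for the IRG members and -0.01 for all genes. The difference between the 2 families was not tested. Gbp7 measured 57.7, 85.6 and 45.5 CPM in MUT, against 22.3, 10.2 and 34.4 CPM in WT. Gbp2b averaged 81.3 ± 31.6 CPM in MUT and 33.1 ± 18.4 CPM in WT, and Gbp3 53.04 ± 16.7 CPM in MUT and 22.1 ± 9.27 CPM in WT. In these 3 of the 8 genes every MUT library lay above every WT library, as in 5.39% of all genes.

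Genes of ATG8 conjugation, on which vacuole loading depends in mouse cells, were listed together with other autophagy partners of IRG proteins. This mixed list showed no common direction: 7 of 15 tested genes had a fitted value above 0, and the median was -0.13. Of its Atg genes, Atg3 (-0.55, SE 0.54), Atg5 (-0.26, SE 1.32), Atg7 and Atg12 were below 0 and Atg16l1 (1.31, SE 1.02) above. Atg3, Atg5 and Atg16l1 overlapped between genotypes. Trim21, a ubiquitin ligase of vacuole defence, had 1647, 491 and 586 counts in MUT, against 1, 261 and 193 in WT, with a log2 fold change of 2.55 (SE 1.25) and every MUT library above every WT library, as in 5.39% of all genes. Atg7, the activating enzyme of the conjugation, measured 8.40, 10.97 and 31.7 CPM in MUT, against 44.9, 58.02 and 32.7 CPM in WT, with a log2 fold change of -1.41 (SE 0.71) and every MUT library below every WT library, as in 3.96% of all genes. Atg12 was at -1.16 (SE 0.68) and overlapped.

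Of the interferon signalling genes upstream of IRG promoters, 10 of 16 fitted values were above 0, and the median over the 16 was 0.36. Reads of Ifnb1, which encodes interferon-beta, numbered 86, 510 and 139 in MUT libraries 1, 2 and 3 and 0 in each WT library; the gene passed the filter through its MUT counts. Ifng, which encodes interferon-gamma, was barely counted in either genotype, with at most 11 reads in MUT and 10 in WT, and was not tested. Irf1, the factor that binds ISRE-like letters in the interferon-gamma response, measured 168.4, 144.2 and 97.6 CPM in MUT, against 76.5, 102.6 and 76.1 CPM in WT. The lowest MUT library for Irf1 lay just below the highest WT library, and its log2 fold change was 0.68 (SE 0.39). Jak2, a kinase of the interferon-gamma receptor, had a log2 fold change of 0.70 (SE 0.40) with no overlap. Ifnb1 and Jak2 were the genes of the 16 with every MUT library above every WT library, as in 5.39% of all genes. In Irf2 every MUT library lay below every WT library, as in 3.96% of all genes, with a log2 fold change of -0.46 (SE 0.41).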

How the data were processed

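The authors deposited raw counts for each Ensembl gene ID and library. The submitters' processing notes name STAR 2.4.2a, GRCm38 and DESeq2 1.26.0 but not what each was used for. Per the labels' protocols, cDNA was amplified by Nugen Ovation and made into libraries with Nextera XT. Molecular identifiers are not mentioned, so reads copied from 1 molecule cannot be set apart. The intervals cover counting error only, treat each read as a separate draw and may be too narrow. Which program counted the reads, on which annotation and with what strand setting, is not stated in those sources.

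Of 43432 gene IDs, 42462 were matched to GENCODE M21 symbols. edgeR 4.0.16 (R 4.3.3) was run with TMM factors, filterByExpr and robust quasi-likelihood tests on genotype alone, at an adjusted p of 0.05. The SE is the log2 fold change divided by the root of F. CPM used TMM-scaled sizes, and log2 CPM a prior count of 2. DESeq2 1.42.0 and limma 3.58.1 were alternatives. The scripts were tested on simulated data.

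The members, lists and tests were chosen with earlier results of these data known. The rule for names took the members, the other listed IRG genes in the table and the 3 smallest p-values of each other list. It also took the 5 genes closest in course. Ifng, Irf2, Atg3, Atg5, Atg16l1 and single cell type markers were named after their values were seen. Shared reads were judged from 50-base windows of the annotated transcripts on both strands. Motifs were searched in RefSeq windows. All pairs of libraries differed by more than sampling noise (chi-square per degree of freedom of 84.4 or more). Library totals of 19934513 to 23366238 counts give the depth.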

Additional observations from a re-analysis of the deposited data

How the results depend on the processing

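No member was called under any alternative run. The members' median log2 fold change was 0.71 with upper-quartile normalization, 0.50 to 0.83 with any 1 library left out, and 0.36 without replicate 2 of both genotypes, which was chosen after seeing the data. Of single members, Igtp ranged from -0.59 to 0.14 with any 1 library left out, changing sign without WT replicate 2. Without replicate 2 of both genotypes Igtp (0.093) and Ifi47 (-0.0069) changed sign. The count of all genes called, 0 in edgeR, was 73 without a filter on low counts (31 higher, 42 lower), 116 with DESeq2 (78 and 38) and 302 with DESeq2 and the replicate block (182 and 120); the cause was not tested. The median over all genes, -0.01 in edgeR, was 0.16 when low counts were kept (members 0.61), 0.15 in DESeq2 (members 0.59) and 0.20 in its blocked form (members 0.61). With the replicate block edgeR called 1 gene, no member, and the members' median was 0.62. The labels do not call a replicate number a batch or day. Libraries that share a number have column names with a common ending of unstated meaning; their deviations correlated at 0.059 to 0.127, and across genotypes 6 of 6 libraries correlated best with their own number. Each member had 35 or more counts in every library.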
